A study of Macaca fascicularis with 1154 samples.

Results

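ENSMFAG00000001837, ENSMFAG00000000722, ENSMFAG00000042357 and ENSMFAG00000000205 are 4 of the 28592 gene IDs in a count table of single cells from cynomolgus monkey embryos. They were chosen by earlier results on these same cells. ENSMFAG00000001837 and ENSMFAG00000000722 were high in 1 cluster of cells, and ENSMFAG00000042357 and ENSMFAG00000000205 were low in that cluster and high in other cells of the same 4 collections (E13_B1pe, E13_B2, E15_B1 and E17_B5). The first pair was therefore selected to be found together, and the second pair to be found in other cells. Shares of positive cells and co-detection in those 4 collections are given as a description with no test. They do enter the tests over days, which were therefore also run without them. The table gives no gene names beside the IDs, and 0 of 28592 IDs were found in the gene table used here, so nothing is said of what each gene does.

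Embryos of Macaca fascicularis, the cynomolgus monkey, were cultured in vitro, digested to single cells and picked by hand, and each cell became 1 SMART-seq2 library. No treatment, strain or genotype is given, and the labels name the tissue only as embryo. Cells are grouped here into collections by the day (the number after E) and the B number of their titles, the letters pe and p included, whose meaning the labels do not give. Of 600 cells with counts, 593 were kept, in 15 collections of 8 to 87 cells from day 9 to day 20. The other 554 samples of the series were not analysed here.

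In the days after implantation, the primate embryo holds the epiblast, which forms the body and the amnion, the hypoblast, which forms yolk sac endoderm, the trophoblast, which forms the placenta, and a growing extraembryonic mesenchyme. Cells of these lineages turn on separate sets of genes, many of them nearly silent in the neighbouring lineage. A gene of that kind has counts in some cells and almost none in others, so the share of cells that express it moves with the makeup of the cells that were picked as well as with its regulation.

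Total counts of the kept cells ran from 107155 to 18828705, and detected IDs from 2292 to 10652. Median totals per collection lay between 583696 in E19_B2 and 7778300 in E09_B1. E19_B2 stood apart: all 4 IDs had 0 counts in all of its 11 cells, which allows a share of up to 27.3% for each. Nothing in the labels says whether 2 collections are 2 embryos, so p-values measure the spread between collections, which may be technical. SMART-seq2 carries no molecular identifiers, and all intervals cover counting error only. Since cells were picked by hand, shares of cells can follow the picking.

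A cell was called positive for an ID at a level of 10 or more CPM, the count of the ID divided by the total count of the cell and multiplied by 1000000. ENSMFAG00000042357 was the most widely found of the 4, with 229 positive cells (38.6%) in 12 collections. ENSMFAG00000000205 had 141 (23.8%) in 10 collections, ENSMFAG00000001837 had 68 (11.5%) in 10 collections and ENSMFAG00000000722 had 14 (2.36%) in 4 collections. Averaged over the 14 collections of at least 10 cells, the positive share was 38.2% ± 34.5 (SD) for ENSMFAG00000042357, 21.6% ± 28.7 for ENSMFAG00000000205, 10.8% ± 16.1 for ENSMFAG00000001837 and 1.89% ± 3.56 for ENSMFAG00000000722. For 3 of the 4 IDs the SD between collections was thus larger than the mean. Just under the threshold, at 5 to 10 CPM, and just over it, at 10 to 20 CPM, lay 12 and 9 cells for ENSMFAG00000001837 and 3 and 3 for ENSMFAG00000000722. For the second pair they were 32 and 20 cells for ENSMFAG00000042357 and 34 and 28 for ENSMFAG00000000205.

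ENSMFAG00000001837 was found mainly on the earliest days. In the 8 cells of E09_B1 its level was 1.00, 16.2, 124, 177, 188, 274, 336 and 630 CPM, so 7 of 8 were positive (87.5%, 95% Clopper-Pearson interval 47.3 to 99.7%). In E09_B2 15 of 28 cells were positive (53.6%, interval 33.9 to 72.5%), and in E11_B2 14 of 57 (24.6%, interval 14.1 to 37.8%). On day 13 the share was 32.1% in E13_B1pe and 3.03% in E13_B2, a gap of the same day between 2 collections whose intervals (15.9 to 52.4% and 0.369 to 10.5%) did not overlap. Day 15 gave 3.45%, 9.09% and 0% in E15_B1, E15_B2 and E15_B3. On day 17 it was 2.70% in E17_B1p and 3.23% in E17_B4, with 1 cell each, but 19.7% in E17_B5 (14 of 71 cells, interval 11.2 to 30.9%). None of the 146 cells of days 19 and 20 was positive, and 2 of them had any count. In the order of the shares, the intervals of all neighbouring collections overlapped.

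The level in its positive cells did not follow the share of cells. The median over positive cells was 188 CPM in E09_B1, 155 in E09_B2 and 38.7 in E11_B2, against 238 CPM in E17_B5, where 4 cells were above 1000 CPM. The highest cell of all, at 2095 CPM, was in E17_B5, 1 of the 4 collections that chose the ID. The only other cell above 1000 CPM, at 1149 CPM, was in E09_B2.

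ENSMFAG00000000722, the partner of the first pair, was much rarer and had another distribution over days. Its 14 positive cells were 3 in E13_B1pe (10.7%), 4 in E15_B1 (4.60%), 1 in E17_B1p (2.70%) and 6 in E17_B5 (8.45%), so 13 of them lay in collections that chose it. It had 0 counts in all 93 cells of days 9 and 11, where 36 cells were positive for ENSMFAG00000001837, and 0 counts in all 146 cells of days 19 and 20. Its highest cell, at 2063 CPM in E15_B1, held 52.4% of all its counts, and the 5 highest cells held 94.9%. Any level of this ID summed over a collection therefore rests on a few cells.

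ENSMFAG00000042357 was found mainly on later days. It had 0 counts in all 36 cells of day 9 and was positive in 9.68% of the 93 cells of days 9 and 11, 18.1% of 215 on days 13 and 15, 54.7% of 139 on day 17 and 71.9% of 146 on days 19 and 20. These shares pool the cells of all collections, which gives large collections more weight. The mean over collections was 13.4% on day 13, 31.0% on day 15, 58.5% on day 17, 50.0% on day 19 and 61.9% on day 20. Collections of 1 day differed as much as days did. The share was 68.2% in E15_B2 but 8.05% in E15_B1, 97.3% in E17_B1p but 38.7% in E17_B4 and 39.4% in E17_B5, and 100% in E19_B1 (51 of 51 cells, interval 93.0 to 100%) but 0% in E19_B2. Low values above the threshold count in the 100%. With the further condition on low values described later, which scales with the level of the collection, the share in E19_B1 was 64.7% (33 of 51 cells). The day 20 collections were close, at 66.7% in E20_B1 and 57.1% in E20_B2, with intervals of 53.7 to 78.0% and 34.0 to 78.2%. Its highest cell reached 6876 CPM, in E19_B1, where 19 of 51 cells were above 1000 CPM.

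ENSMFAG00000000205 appeared later still. It had 0 counts in all 93 cells of days 9 and 11. By collection this allows a share of up to 37.5% in E09_B1, 10.7% in E09_B2 and 5.26% in E11_B2. With the cells of all collections pooled, it was positive in 11.6% on days 13 and 15, 36.0% on day 17 and 45.2% on days 19 and 20. Pooling gives large collections more weight. The mean over collections was 7.09% on day 13, 20.4% on day 15, 38.3% on day 17, 18.6% on day 19 and 37.3% on day 20. These means show no rise after day 17. By collection its share was 89.2% in E17_B1p (interval 74.6 to 97.0%), 74.6% in E20_B1 (62.1 to 84.7%), 37.3% in E19_B1 (24.1 to 51.9%), 36.4% in E15_B2, 22.5% in E17_B5, 16.7% in E15_B3 and 10.6% or less elsewhere. In that order the intervals of neighbours overlapped except between E20_B1 and E19_B1. With the further condition on low values described later, the shares were 33.3% in E20_B1 and 25.5% in E19_B1. That condition is 5% of the collection's own summed level, which was 3054 CPM in E20_B1 and 423 CPM in E19_B1. It thus cuts higher in E20_B1, where a cell at 146 CPM did not meet it. The gap at 1 higher cutoff common to both was not tested. On day 20 it was found in E20_B1 and had 0 counts in all 21 cells of E20_B2, although the partner ID was positive in more than 50% of cells in both. Its highest cells were in E20_B1, up to 20121 CPM, with 13 of 63 cells above 1000 CPM. Levels are not compared between IDs, since gene lengths were not used here.

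**Figure D1:**
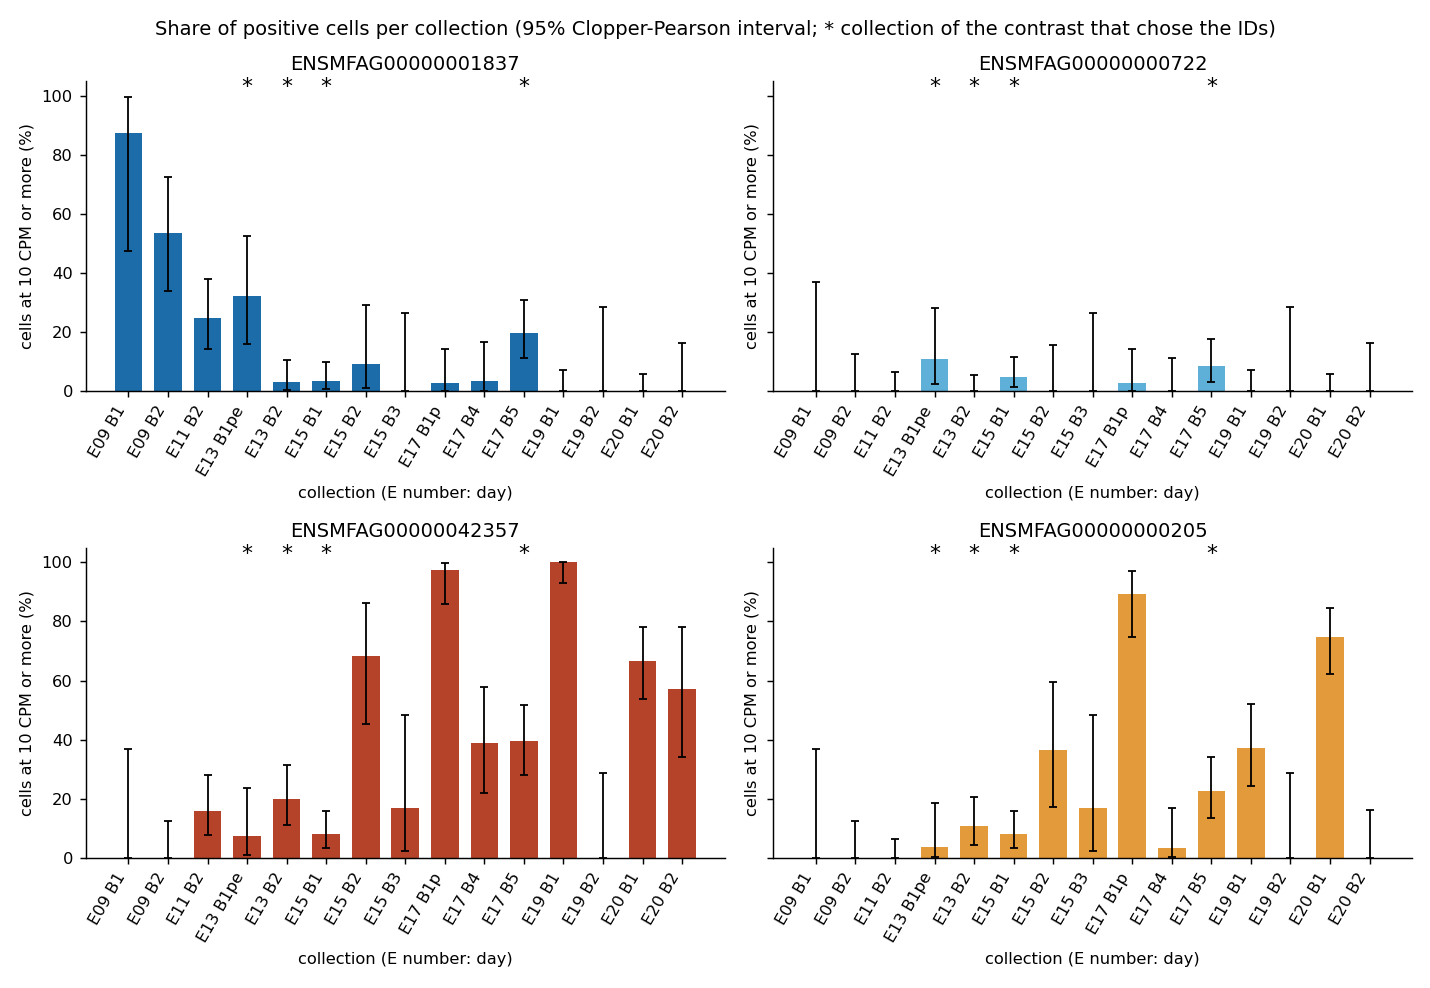
Share of cells at 10 CPM or more (y axis, percent) for each ID in each of the 15 collections (x axis, in order of day), with 95% Clopper-Pearson intervals as bars and an asterisk over the 4 collections that chose the IDs. ENSMFAG00000001837 is highest at 87.5% and 53.6% on day 9, whereas ENSMFAG00000042357 and ENSMFAG00000000205 are at 0% there and reach 100% and 89.2% on days 19 and 17.

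**Figure D2:**
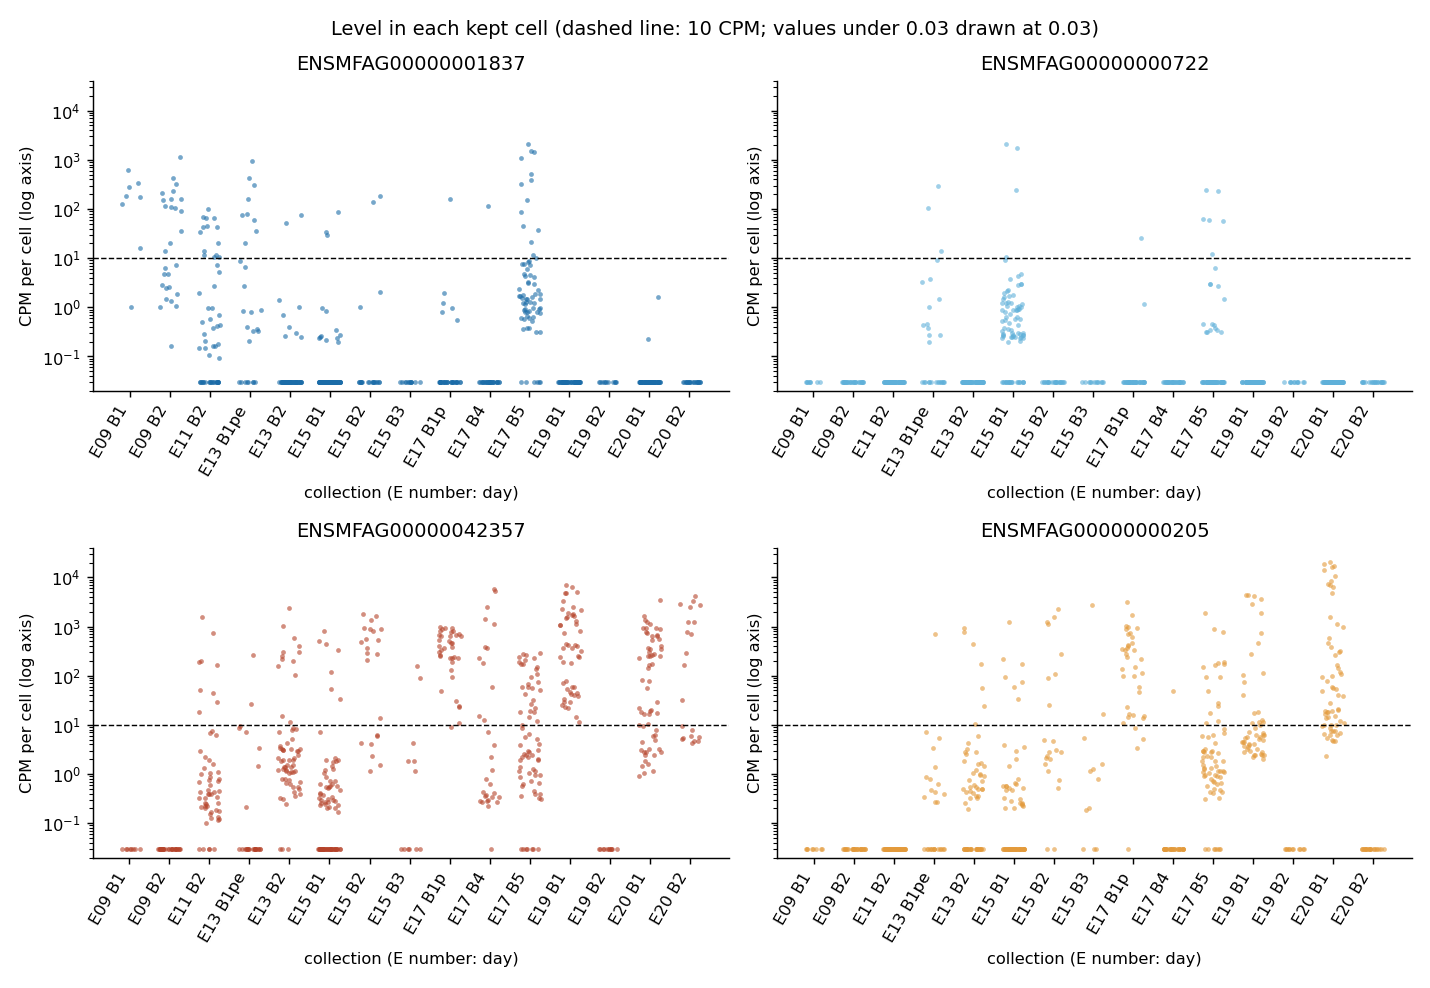
Level of each ID in each of 593 cells (y axis, CPM on a log axis, values under 0.03 drawn at 0.03) by collection (x axis), each point 1 cell and the dashed line the 10 CPM threshold. In several collections the negative cells are not at 0 but form a band of low values, and in E19_B1 that band for ENSMFAG00000042357 lies just above the threshold.

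Counts were also summed over the cells of each of the 14 collections with at least 10 kept cells, and the day entered edgeR's quasi-likelihood test as a number. The 4 collections that chose the IDs were among the 14. In such sums, fewer cells with a gene and less RNA of it per cell cannot be told apart. Of 16002 IDs tested, 2 (0.0125%) passed an adjusted p of 0.05 (Benjamini-Hochberg), and 0 of the 4 IDs were among them. An unadjusted p under 0.05 was found for 903 IDs, and DESeq2 called 511 and limma 0. The log2 slope per day was -0.46 (SE 0.29, adjusted p = 1.00) for ENSMFAG00000001837 and -1.08 (SE 1.05, adjusted p = 1.00) for ENSMFAG00000000722. It was 0.51 (SE 0.22, unadjusted p = 0.0353, adjusted p = 0.828) for ENSMFAG00000042357 and 0.80 (SE 0.32, unadjusted p = 0.0237, adjusted p = 0.750) for ENSMFAG00000000205. The sign of the slope was thus negative for the first pair and positive for the second, and none of the 4 slopes passed the test. ENSMFAG00000000722 had 0 counts on days 9 and 11 as well as on days 19 and 20, so its sign does not describe a steady fall. In the 10 collections that did not choose the IDs, a fit added after seeing the data, the slope was -1.13 (SE 0.35, unadjusted p = 0.00638, adjusted p = 0.634) for ENSMFAG00000001837, 0.52 (SE 0.30, adjusted p = 1.00) for ENSMFAG00000042357 and 1.02 (SE 0.52, adjusted p = 1.00) for ENSMFAG00000000205. ENSMFAG00000000722 was too low to be tested there, and 4 of 15595 IDs were called. Single collections carried much of the size: without E17_B5 the slope of ENSMFAG00000001837 was -1.09 (adjusted p = 0.397) and that of ENSMFAG00000000722 was -1.65, without E15_B1 the latter was -0.54, and without E20_B1 the slope of ENSMFAG00000000205 was 0.49. Without E19_B2, where all 4 IDs were at 0, the slope of ENSMFAG00000042357 was 0.55 (adjusted p = 0.499) and its mean share of positive cells was 41.1%.

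A test of any difference between days, with the day as a factor, called 0 of 18799 IDs (0%) in edgeR, with 701 at an unadjusted p under 0.05. DESeq2 called 272 IDs and limma 141, but none of the 4 was called by either. All 4 had an adjusted p of 0.960 in edgeR, with unadjusted values of 0.0117 for ENSMFAG00000001837, 0.0705 for ENSMFAG00000000722, 0.0791 for ENSMFAG00000042357 and 0.0350 for ENSMFAG00000000205. Without the 4 collections that chose the IDs, the adjusted p was 0.816 for ENSMFAG00000001837 and 1.00 for the other 3, with 2 of 17317 IDs called. Differences between collections of the same day, given above, are the spread against which days are compared here. Across single cells, the collection accounted for 50.9% of the variance of log2(CPM + 1) for ENSMFAG00000042357, 49.6% for ENSMFAG00000000205 and 39.4% for ENSMFAG00000001837. The median over the 10541 IDs positive in at least 5% of cells was 11.5%, and 98.8% or more of them were lower than each of these 3. ENSMFAG00000000722 was at 14.6%.

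Few cells were positive for members of both pairs. This is a description, since the pairs were chosen to be apart in 4 of the collections counted here. Of the 593 cells, 66 (11.1%) were positive for the first pair only, 242 (40.8%) for the second pair only and 8 (1.35%) for members of both, and 277 (46.7%) for none. In the first group, 54 cells had ENSMFAG00000001837 alone, 4 had ENSMFAG00000000722 alone and 8 had both. In the second group, 107 cells had ENSMFAG00000042357 alone, 18 had ENSMFAG00000000205 alone and 117 had both. Median total counts were 3152340 in cells of the first pair only, 2563890 in cells of the second only and 2594840 in cells with none, so the cells with none lay between the other groups in depth.

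Most of the separation of ENSMFAG00000001837 from the second pair lay between collections. If the positive shares were independent over all 593 cells, 26.3 cells would be positive for ENSMFAG00000001837 and ENSMFAG00000042357. Taking each collection's own shares lowers that number to 11.7, and 4 such cells were observed. With ENSMFAG00000000205 the numbers were 16.2 pooled, 5.58 within collections and 4 observed. For ENSMFAG00000042357 the further step within collections came largely from E17_B5, with 1 double-positive cell against 5.52 under independence. There 1 of the 14 cells with ENSMFAG00000001837 and 27 of the 57 without it were positive for ENSMFAG00000042357. With ENSMFAG00000000205, E17_B5 had 3 double-positive cells against 3.15 under independence, and E15_B2 had 0 against 0.727. E17_B5 was among the collections that chose the IDs.

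In the collections that did not choose them, 3 cells were positive for ENSMFAG00000001837 and ENSMFAG00000042357 and 4.93 would be under independence. Each ID had positive cells there in 4 shared collections of at least 10 cells. The observed share of double-positive cells was lower by 1.94 percentage points ± 2.89 (SD, n = 4), below in 3 of 4 collections (exact two-sided permutation p = 0.25, adjusted over 3 pairs 0.375). In E11_B2, the earliest of them, 2 of 14 cells with ENSMFAG00000001837 and 7 of 43 without it were positive for ENSMFAG00000042357, nearly the same share. In E15_B2 the 2 cells positive for ENSMFAG00000001837 were among the 7 of 22 under 10 CPM of ENSMFAG00000042357, at 4.25 and 1.56 CPM of it. With ENSMFAG00000000205 the difference was -1.04 percentage points ± 1.97 (SD, n = 3; exact permutation p = 0.75, adjusted 0.75). The smallest p these numbers of collections allow are 0.125 and 0.25, so neither test could reach 0.05. Over all collections, ENSMFAG00000000722 was positive with ENSMFAG00000042357 in 1 cell against 3.88 under independence within collections. With ENSMFAG00000000205 it was 2 against 2.67. Outside the collections that chose the IDs these were 1 against 0.973 and 1 against 0.892, both in the same cell of E17_B1p. Only 1 collection could be compared there, so no test was possible. Exclusion within collections was thus not shown outside the 4 collections that chose the IDs.

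The first pair overlapped in few cells. Both IDs were positive in 8 cells against 2.31 under independence within collections, that is 11.8% of cells with ENSMFAG00000001837 and 57.1% of cells with ENSMFAG00000000722. Of the 8, 6 were in E17_B5, where all 6 cells with ENSMFAG00000000722 also had ENSMFAG00000001837 and 1.18 would under independence. Their median level of ENSMFAG00000001837 was 745 CPM, against 1.46 CPM in the other 65 cells. E13_B1pe, in contrast, had 1 double-positive cell: 1 of 9 cells with ENSMFAG00000001837 and 2 of 19 without it were positive for ENSMFAG00000000722. All 8 cells were in collections that chose the pair, and the only cell with ENSMFAG00000000722 outside them, in E17_B1p, lacked ENSMFAG00000001837. The pairing could therefore not be tested in cells the choice did not use.

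The second pair was found together in 120 cells, against 96.9 under independence within collections and 54.5 pooled. Of cells with ENSMFAG00000000205, 85.1% also had ENSMFAG00000042357, and 52.4% the other way round. In the collections that chose the IDs, 23 cells had both and 8.32 would under independence. In the others, 97 had both and 88.6 would, and the difference in the 5 collections that could be compared was 5.14 percentage points ± 4.87 (SD, n = 5), above in 4 of 5 (exact two-sided permutation p = 0.125, smallest possible 0.0625, adjusted 0.375). In E15_B2 all 8 cells with ENSMFAG00000000205 had ENSMFAG00000042357, as did 7 of the 14 without. In E20_B1 it was 36 of 47 cells with and 6 of 16 without.

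The levels of the second pair ran in different directions in different collections. In E20_B1 the median of ENSMFAG00000042357 was 176 CPM in the 47 cells with ENSMFAG00000000205 and 4.72 CPM in the 16 without. In E19_B1, where all cells were positive for ENSMFAG00000042357, it was 241 CPM in the 19 cells with ENSMFAG00000000205 and 932 CPM in the 32 without. In E17_B4 12 of 31 cells had ENSMFAG00000042357, and the 1 cell with ENSMFAG00000000205 was not among them. In E20_B2 12 of 21 had ENSMFAG00000042357 while ENSMFAG00000000205 had 0 counts in all. The difference between collections in this relation was not tested.

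**Figure D3:**
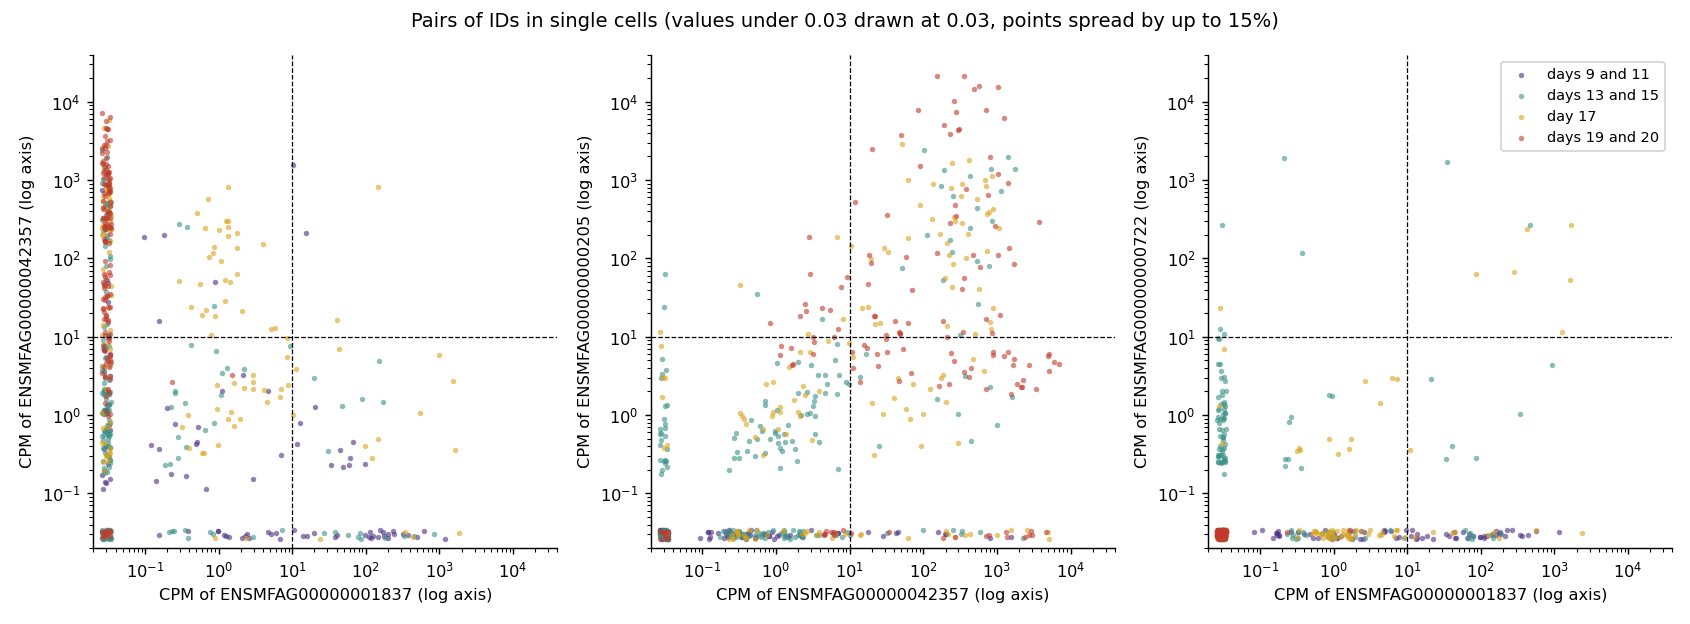
Levels of 2 IDs in each cell (both axes CPM on log axes, values under 0.03 drawn at 0.03), with dashed lines at 10 CPM and colours for 4 periods. The upper right field holds 4 cells for ENSMFAG00000001837 with ENSMFAG00000042357, 120 for ENSMFAG00000042357 with ENSMFAG00000000205 and 8 for ENSMFAG00000001837 with ENSMFAG00000000722. In the middle panel some cells of days 19 and 20 have ENSMFAG00000042357 above 1000 CPM and ENSMFAG00000000205 under 10 CPM.

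**Figure D4:**
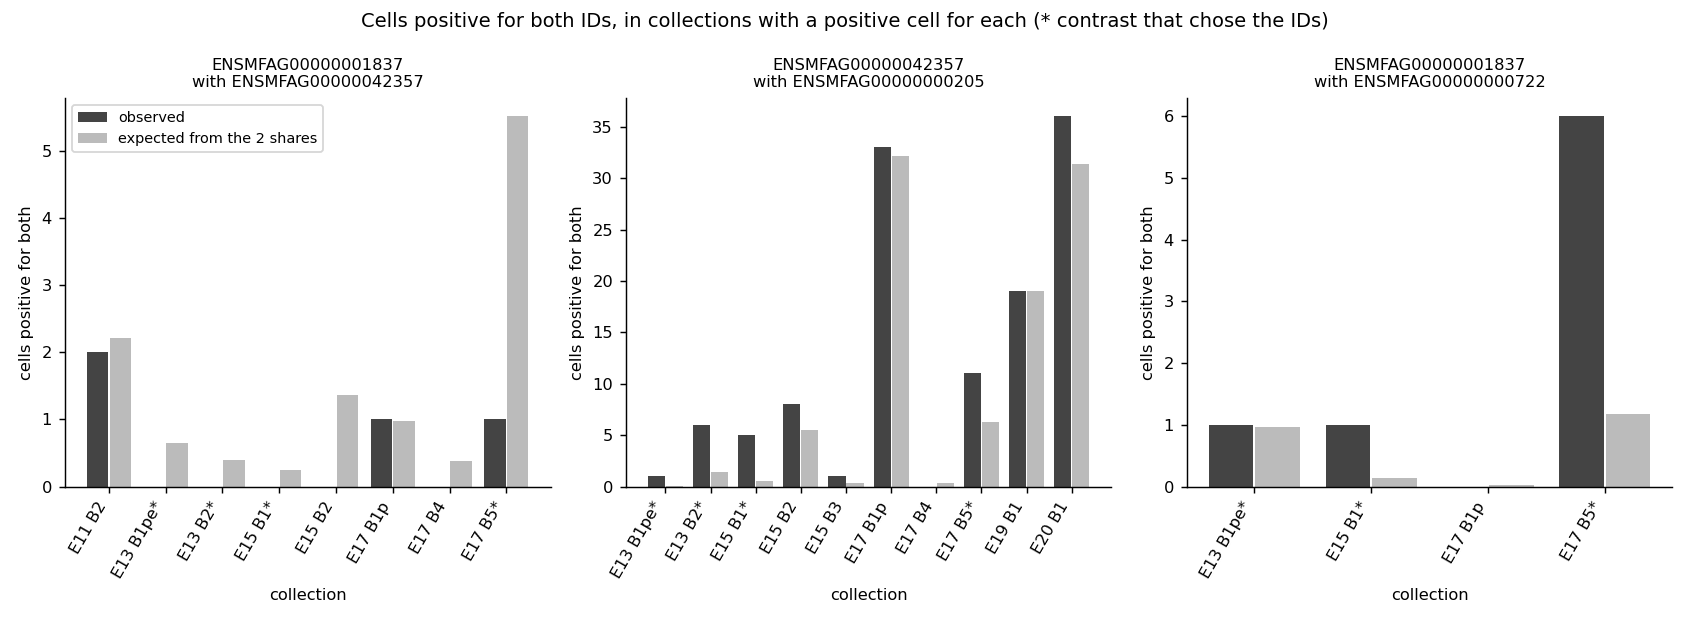
Cells positive for both IDs of a pair (dark bars) and the number under independence of the 2 shares in that collection (light bars), for collections (x axis) with a positive cell for each ID. The y axes are cell numbers and differ between panels. In E17_B5 1 cell is observed for ENSMFAG00000001837 with ENSMFAG00000042357, and 6 for ENSMFAG00000001837 with ENSMFAG00000000722 against 1.18 under independence.

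The 8 cells positive for members of both pairs were not of 1 kind. Both of those in E11_B2 were at 14.2 and 10.7 CPM of ENSMFAG00000001837, just above the threshold, with 189 and 1531 CPM of ENSMFAG00000042357. Of the pair in E17_B1p, 1 had 158 CPM of ENSMFAG00000001837 with 929 CPM of ENSMFAG00000042357, and the other had 26.1 CPM of ENSMFAG00000000722 with 939 CPM of ENSMFAG00000042357 and 240 CPM of ENSMFAG00000000205. The cell in E15_B1 had 248 CPM of ENSMFAG00000000722 and 59.6 CPM of ENSMFAG00000000205. The 3 in E17_B5 had totals of 108589, 151791 and 183773, against a collection median of 2143770, so that 10 CPM was close to 1 or 2 counts in them. Their levels were 36.8, 46.1 and 21.8 CPM of ENSMFAG00000001837 with 27.6, 184 and 10.9 CPM of ENSMFAG00000000205, so the second of them was well above that limit for both.

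Depth differed between positive and negative cells in part. Where a collection had at least 5 of each, total counts were higher in the positive cells in 3 of 4 collections for ENSMFAG00000001837, 6 of 8 for ENSMFAG00000042357 and 3 of 6 for ENSMFAG00000000205. The share of counts taken by ENSMFAG00000000004, the ID with the most counts in the table, was lower in cells with ENSMFAG00000001837 in 4 of 4 collections. When each cell was thinned to 100000 counts, at which 1 count is 10 CPM, the share for ENSMFAG00000001837 was 78.6% in place of 53.6% in E09_B2 and 31.0% in place of 19.7% in E17_B5, and stayed at 24.6% in E11_B2. ENSMFAG00000042357 was at 98.0% in E19_B1 and 77.8% in E20_B1. A thinned share rests on single counts, and no difference is read from it.

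Negative cells often held a few counts, nearly always in collections with a positive cell, though not in every such collection. In collections with a positive cell, 33.0% of the cells under 10 CPM had a count of ENSMFAG00000001837 (121 of 367), 42.6% of ENSMFAG00000000722 (89 of 209), 74.1% of ENSMFAG00000042357 (235 of 317) and 57.8% of ENSMFAG00000000205 (189 of 327). In collections without a positive cell these were 2 of 158, 0 of 370, 0 of 47 and 0 of 125. Collections with a positive cell differed. E17_B4 had 1 positive cell for ENSMFAG00000001837 and 1 for ENSMFAG00000000205, and 0 of its 30 cells under 10 CPM had a count of the respective ID. Of the 89 cells with low counts of ENSMFAG00000000722, 63 were in E15_B1. Low counts were also frequent for other IDs, taken here at a higher cutoff than the positive cell used for the 4, so the percentages are not matched. Over the 15 collections, cells under 10 CPM had a count in 23.0 to 100% of cases (median 56.1%) for IDs with a cell of 1000 CPM or more in that collection, and in 1.19 to 5.58% (median 2.66%) for IDs with no positive cell there.

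**Figure D5:**
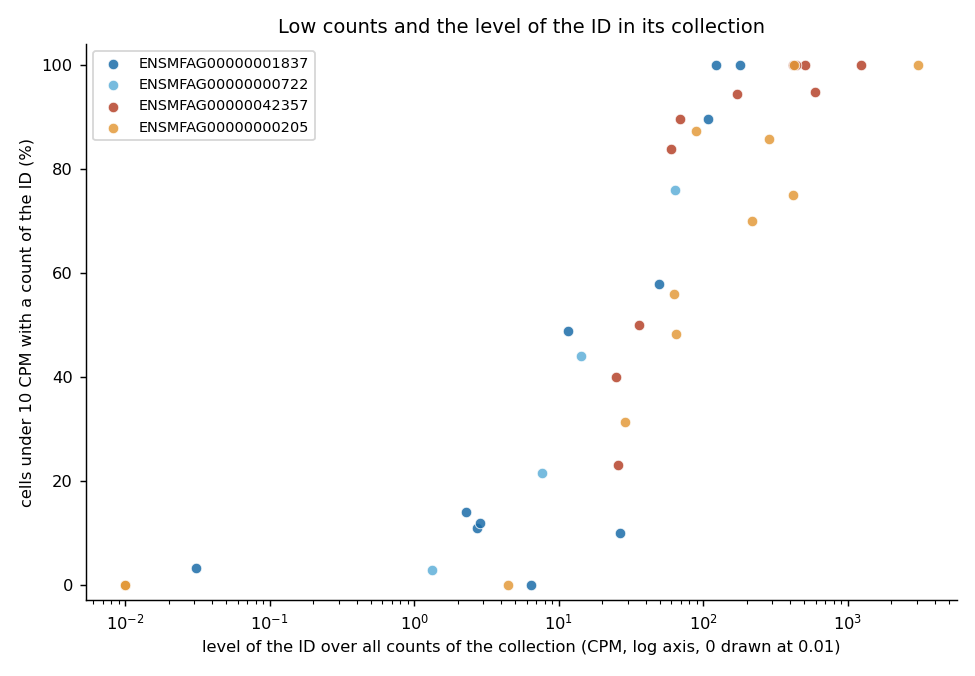
Percent of the cells under 10 CPM that had at least 1 count of the ID (y axis), against the level of the ID over all counts of that collection (x axis, CPM on a log axis, 0 drawn at 0.01), each point 1 ID in 1 collection. The percentage goes from 0% at the left to 100% at the right for the IDs of the second pair and for ENSMFAG00000001837.

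In some collections with a high level, this band of low values reached or crossed the threshold. The lowest of the 51 cells of E19_B1 had 11.5 CPM of ENSMFAG00000042357. In E20_B1 the lowest of 63 cells had 2.37 CPM of ENSMFAG00000000205 and no cell was at 0, and the band ran through 10 CPM without a gap. With a second condition, chosen after seeing the data, of at least 5% of the collection's summed level, positive cells for ENSMFAG00000042357 went from 229 to 199 and those for ENSMFAG00000000205 from 141 to 103. The cutoff in CPM thus differs between collections. In E19_B1 positive cells went from 51 to 33 for ENSMFAG00000042357, and in E20_B1 from 47 to 21 for ENSMFAG00000000205. The 68 and 14 cells of the first pair all met the condition. Under this condition 87 cells had both IDs of the second pair against 59.7 under independence within collections, and 4 had ENSMFAG00000001837 with ENSMFAG00000042357 against 11.6. In the collections that did not choose the IDs these were 64 against 51.4 and 3 against 4.75. The part of these low counts in the shares given above was not tested beyond this.

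For each ID the 2 IDs most like it were those with the highest Pearson correlation of log2(CPM + 1) over the 593 cells, after the mean of each collection was taken off. The correlations are descriptions, since cells share their library preparation and depth. ENSMFAG00000001837 was most like ENSMFAG00000036950 (r = 0.43), positive in 52.9% of its positive cells and 7.62% of the others, and ENSMFAG00000004039 (r = 0.42). For ENSMFAG00000000722 they were ENSMFAG00000037483 (r = 0.50), positive in 8 of its 14 cells and 4.32% of the others, and ENSMFAG00000042930 (r = 0.41). ENSMFAG00000042357 went most with ENSMFAG00000036871 (r = 0.53), positive in 81.2% of its cells and 15.7% of the others, and ENSMFAG00000036687 (r = 0.53). The same ENSMFAG00000036871 (r = 0.55), positive in 90.8% of cells with ENSMFAG00000000205 and 25.4% of the others, stood beside ENSMFAG00000038137 (r = 0.57) for the fourth ID. Between the 4 IDs themselves r was 0.28 within the first pair and 0.35 within the second, and -0.15 and -0.08 for ENSMFAG00000001837 with ENSMFAG00000042357 and ENSMFAG00000000205. The 2 IDs named for each are the highest of 10541 compared, and all cells entered, those of the 4 collections that chose the IDs included.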

How the data were processed

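Per the labels' protocols, trypsin-digested embryos were hand-picked into single cells for SMART-seq2 on the BGISEQ-500. STAR 2.3.4 and RSEM were used, per the submitters' processing notes. The genome build is not given in the sources used here. Estimated counts were deposited by the authors, 1 value per ID and cell, not normalized, and 9.59% of values above 0 were not whole (tolerance 1e-06). They were rounded for the count tests.

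From these, CPM was computed here over all IDs. A minimum of 100000 counts and 2000 detected IDs left out 7 cells. Counts were summed per collection and fitted over all IDs with edgeR 4.0.16 (TMM, filterByExpr, Benjamini-Hochberg adjustment, R 4.3.3), with DESeq2 1.42.0 and limma 3.58.1 (on the mean of log2(CPM + 1), for the IDs that edgeR tested) among the alternatives. The edgeR day trend was also run on simulated counts with planted slopes. Its outcome is not given here, and no statement on the power of the fits is drawn from it. Co-detection was compared with the product of the 2 shares in each collection by an exact permutation test over collections (scipy 1.17.1), with 6 pairs planned and the 3 that could be tested adjusted together. Shares have Clopper-Pearson intervals of 95%, and limits for a count of 0 rest on 3 counts. Named IDs are the 4 members and the 2 most correlated with each, among IDs positive in at least 5% of cells. The members and lists were chosen with earlier results of these data known. Cell type markers were not used, since 0 IDs matched a symbol. No doublet caller was run on these hand-picked cells. The fits without the 4 collections that chose the IDs, the removal of ENSMFAG00000000004 from totals, the 5% condition and the leaving out of collections from mean shares were chosen after seeing the data.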

Additional observations from a re-analysis of the deposited data

Results flagged for a closer look

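1 cell of E13_B1pe that was left out for its depth held 4 counts of ENSMFAG00000001837. With a total of 73874 counts these are 54.1 CPM, and the same cell had 3 counts of ENSMFAG00000000205, 40.6 CPM. The cell enters no value of the report, and among the other settings only the shares computed with no filter on cells. There the share for ENSMFAG00000001837 was 11.2% in place of 10.8%, with all left-out cells added back. Of these, 1 more of E13_B1pe had 51.9 CPM of ENSMFAG00000001837 and of ENSMFAG00000000722, at 1 count each. Another, of E17_B5, had 18.2 CPM of ENSMFAG00000001837 and of ENSMFAG00000042357 and 36.4 CPM of ENSMFAG00000000205.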

How the results depend on the processing

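Of 359 values under other settings, 356 kept their direction and side of the threshold or, with no test, moved by less than the SD between collections. Many of these could hardly change, so the count is no measure of stability. The SD is wide: mean shares at 1 CPM of 39.9% in place of 21.6% for ENSMFAG00000000205 and 19.2% in place of 10.8% for ENSMFAG00000001837 count as kept. Leaving out a collection that a co-detection test did not use repeats its value, and tests on 5 or fewer collections cannot reach 0.05. With cells of at least 4000 detected IDs, the difference between days of ENSMFAG00000042357 had an adjusted p of 0.0488 in edgeR, over 12 collections, in place of 0.960, and 67 IDs were called in place of 0. Over its 9 settings that p was 0.0488 to 1.00, and leaving out collections in turn gave 0.134 to 1.00. At 1 CPM the mean share of cells with ENSMFAG00000000722 was 5.75% in place of 1.89%. Without E15_B2, the co-detection of ENSMFAG00000001837 with ENSMFAG00000000205 turned from -1.04 to 0.0941 percentage points, over 2 collections, and the range over collections left out was -1.70 to 0.0941. The cause was not tested in these 3 cases. With the B number as a replicate block, the day slope was -1.32 (adjusted p = 0.344) for ENSMFAG00000001837, -2.19 (0.410) for ENSMFAG00000000722, 0.60 (0.595) for ENSMFAG00000042357 and 0.77 (0.765) for ENSMFAG00000000205, with 1 ID called in place of 2. The labels do not say what the B number stands for, and its role as a batch was not tested. Deviations of collections of other days correlated at over 0.1 in 3 of 16 pairs with the same B number (mean r = -0.06). With another B number it was 12 of 41 pairs (mean r = 0.03). IDs called for the day trend numbered 6 with no filter, 18 with collections of at least 5 cells, 3 with at least 4000 detected IDs and 0 without the collections with dots in their titles. For any difference between days they numbered 81 with no filter, 1 with collections of at least 5 cells, 3 without the collections with dots and 4 with the block. DESeq2 gave no adjusted p for the trend of ENSMFAG00000001837 and ENSMFAG00000000722, and the latter was not tested without the collections with dots. Collections of 8 to 87 cells limit all shares, and 3 to 5 collections limit the tests of co-detection.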
